A study of Mus musculus with 12 samples.

Results

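The transcripts described here are those of 10 genes linked to the bone marrow stroma that keeps and instructs blood stem cells: Kitl, Angpt1, Vcam1, Il7, Lepr, Foxc1, Ebf1, Ebf3, Ptn and Dpp4. They were chosen by name, and every probe set (a group of short oligonucleotides that together read 1 transcript) whose platform annotation gave 1 of these symbols and no other was taken. This gave 32 of the 45037 probe sets on the array, for 10 of the 18193 genes with a probe set of their own. Kitl had 4 probe sets, Angpt1 2, Vcam1 3, Il7 2, Lepr 4, Foxc1 2, Ebf1 5, Ebf3 3, Ptn 3 and Dpp4 4. The probe set with the highest mean signal over all arrays is called the main one of its gene. All 32 entered the comparison, since no filter on dim values was used. A mean signal of at least 100 was reached by 15 of the 32 probe sets and by the main ones of 7 genes, while those of Lepr, Ptn and Dpp4 lay below 100.

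Blood stem cells are held in the marrow by perivascular mesenchymal cells, among them the CXCL12-abundant reticular (CAR) cells, most of which carry the leptin receptor. These cells present membrane-bound and secreted ligands such as stem cell factor, CXCL12 and IL-7 to blood stem cells and lymphoid precursors, and hold them through adhesion molecules. Mouse genetics has placed the transcription factors FOXC1, EBF1 and EBF3 upstream of this program, and stroma without FOXC1 or without EBF3 loses niche factors.

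Affymetrix Mouse Genome 430 2.0 arrays were hybridized with RNA from 6 co-cultures of mesenchymal stem cells (MSCs) with hematopoietic stem cells (HSCs) and from 6 MSC-only cultures, all taken on day 6. Each co-culture was seeded with 3000 MSCs and 7000 HSCs, and each MSC-only culture with 3000 MSCs and 0 HSCs, in 12-well dishes with serum-containing IMDM. Both cell types came from the bone marrow of C57BL6/J mice labelled male and 6 weeks old, MSCs as Sca-1+ and PDGFR-α+ cells gated as negative for CD31, CD45 and TER119, and HSCs as Lin-, Sca-1+ and c-Kit+ cells. The comparison was set up to ask what contact with or exposure to HSCs does to the transcripts of MSCs. The study describes direct and Transwell co-cultures without saying which was hybridized, its deposited design mentions a sort of MSCs on day 6 that the methods do not describe, and the methods take MSCs for co-culture from mice that express green fluorescent protein. Nothing says which cultures came from separate mice or cell preparations, so p-values measure the spread between these 12 samples, which may be technical.

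Array medians of the signal lay between 77.2 and 89.0 in co-cultures and between 74.8 and 85.5 in MSC-only cultures, and the number of arrays limits the precision. Markers of the labelled cell type were present: 12 of 14 measured fibroblast and mesenchymal genes had a mean signal of at least 100, with a summed signal of 25043 to 49522 in co-cultures and 27999 to 49106 in MSC-only cultures. All 18 macrophage and pan-leukocyte genes also passed 100, none was at 0, and their summed signal was 336482 to 437501 in co-cultures and 321221 to 442371 in MSC-only cultures. The CD45-negative gate set when the MSCs were taken would remove leukocytes, yet their transcripts measured at these levels in both groups on day 6. Whether the RNA came from whole cultures or from sorted cells is not settled by the sources. In either, fewer cells of a type and less RNA per cell cannot be told apart. The part of these cells in the values below was not tested.

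Against the label male, 8 of 12 arrays carried the X-inactivation transcript Xist. In cultures numbered 1, 2, 5 and 6 it measured 13136 to 16604 in co-cultures and 60.5 to 117.6 in MSC-only cultures, and in those numbered 3 and 4 it measured 17369 to 17840 in co-cultures and 16810 to 21978 in MSC-only cultures. The Y-linked gene Eif2s3y measured 1022 to 1331 in co-cultures 1, 2, 5 and 6 and 2604 to 2845 in MSC-only cultures 1, 2, 5 and 6, but 0.8 to 13.6 in co-cultures 3 and 4 and 0.5 to 1.3 in MSC-only cultures 3 and 4. The arrays numbered 3 and 4 thus stand apart in both groups, and member values are also given without them. Xist was high in every co-culture but low in MSC-only cultures 1, 2, 5 and 6. Differences between the groups over all 12 arrays therefore also lie partly along the sex-linked signals, and their part was not tested. Co-cultures 1, 2, 5 and 6 held both Xist and Y-linked signals. In the group differences a different mix of cells and a change within MSCs cannot be told apart. A second division ran across the groups: the first principal component, computed without the probe sets of the 10 genes, held 21.6% of the variance and left a wide empty interval between 6 arrays (co-cultures 2, 3 and 5 with MSC-only cultures 1, 3 and 5, called side B) and the other 6 (co-cultures 1, 4 and 6 with MSC-only cultures 2, 4 and 6, called side A). Each side held 3 arrays of each group. What either division stands for is not given in the sources used here.

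Between co-cultures and MSC-only cultures, 0 of the 32 probe sets passed limma at an adjusted p under 0.05, over all 45037 probe sets, of which 0.00444% passed. Every one of the 32 had the same adjusted p of 0.99998 from limma, which is therefore not repeated gene by gene. At an unadjusted p under 0.05 there was 1 of the 32, a Dpp4 probe set that was higher, where 4.36% of all probe sets were under that value in either direction and 2.81% were under it as higher (1.55% as lower). In 0 of the 32 did the 6 co-cultures and the 6 MSC-only cultures fail to overlap, against 0.198% of all probe sets. By the main probe sets, the co-culture mean was above the MSC-only mean for 4 genes and below it for 6, with a median difference of -0.01 on the log2(signal + 16) scale, against 0.01 over all genes. Over all 32 probe sets 10 were higher and 22 lower in co-cultures. All differences below are co-culture minus MSC-only on that log2 scale, on which a change of a dim transcript looks smaller than it is, while levels are given as linear array signal. Because signal depends on the probes, levels are compared between arrays for 1 gene at a time and not between genes.

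**Figure D1:**
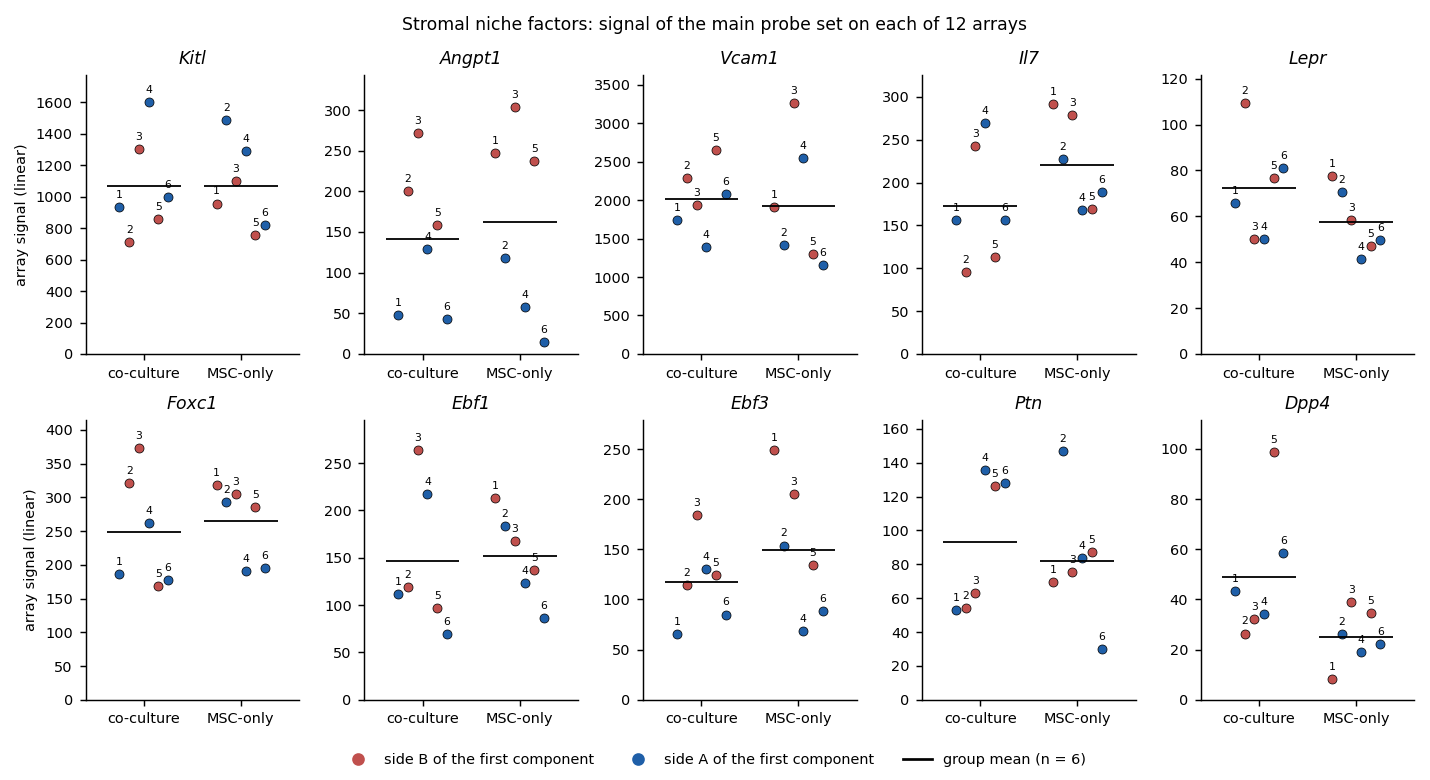
Linear array signal of the main probe set of each of the 10 genes (y axis) in the 6 co-cultures (left) and the 6 MSC-only cultures (right), 1 point per array with its number, red for side B and blue for side A of the first component, with the group mean as a line. Both groups overlap for every gene, Kitl has the same mean signal of 1069 in both, and the 6 red points of Angpt1 all lie above its 6 blue points.

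Kitl encodes stem cell factor, the ligand of the receptor tyrosine kinase KIT and the main niche signal for survival of blood stem cells. Its main probe set (1415855_at) had signals of 714 (lowest), 967 (median) and 1602 (highest) in co-cultures, and 757, 1029 and 1488 in MSC-only cultures. The range of each group covered most of that of the other, with co-culture 4 and MSC-only culture 2 at the top. Its mean was 1069 ± 327 in co-cultures and 1069 ± 282 in MSC-only cultures (SD, n = 6 each), a difference of -0.01 (SE 0.21, 95% interval -0.48 to 0.46). The spread between cultures of 1 group was thus as wide as any distance between the groups. The other 3 probe sets of Kitl differed by -0.04, 0.12 and 0.27.

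The receptor of stem cell factor, Kit, was dim, at a mean signal of 37.4 ± 20.0 in co-cultures and 47.3 ± 12.3 in MSC-only cultures (SD, n = 6 each), with a difference of -0.35 (SE 0.29), while its second probe set differed by 0.26. Kit also marks the HSCs that were added, of which 7000 had been seeded in each co-culture. The study reports that the HSC population, by flow cytometry, fell greatly soon after co-culture began. Hematopoietic cells rose in number in its co-cultures. Co-culture 1 had the lowest Kit signal of the 12, at 2.3.

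Angpt1 encodes angiopoietin-1, the activating ligand of the receptor TIE2 on endothelial cells and blood stem cells. In co-cultures its main probe set (1439066_at) had signals of 43.5, 144 and 272 (lowest, median, highest), and in MSC-only cultures 14.1, 177 and 304. The arrays within each group differed far more than the groups did. Means were 142 ± 88.6 in co-cultures and 163 ± 116 in MSC-only cultures (SD, n = 6 each), a difference of -0.01 with an SE of 0.59 and a 95% interval of -1.30 to 1.27, so a 2-fold change in either direction lay inside the interval. The second probe set (1421441_at) differed by 0.10, with an SE of 0.77. Tek, which encodes TIE2, averaged 24.0 in co-cultures and 22.0 in MSC-only cultures (difference 0.08), and Tie1, an orphan partner of TIE2, averaged 16 and 9.78 in the same order (difference 0.32, SE 0.38).

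The spread of Angpt1 followed the first component. On side B the 6 arrays had main probe set signals of 159 to 304, and on side A 14.1 to 128, with no overlap. With the second probe set the gap was wider, at 99.7 to 158 on side B and 1.1 to 33.5 on side A. On each side both groups were present, with co-cultures 2, 3 and 5 at 200, 272 and 159 beside MSC-only cultures 1, 3 and 5 at 247, 304 and 237. On side A, co-cultures 1, 4 and 6 had 48.0, 128 and 43.5 and MSC-only cultures 2, 4 and 6 had 118, 58.2 and 14.1. Only 0.472% of the 10180 genes with a mean signal of at least 100 had a larger SD within groups than Angpt1 (1.14 on the log2 scale, against a median of 0.19 for these genes). With the side as a term in the fit the SE of the group difference was 0.35 and the difference was still -0.01.

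**Figure D2:**
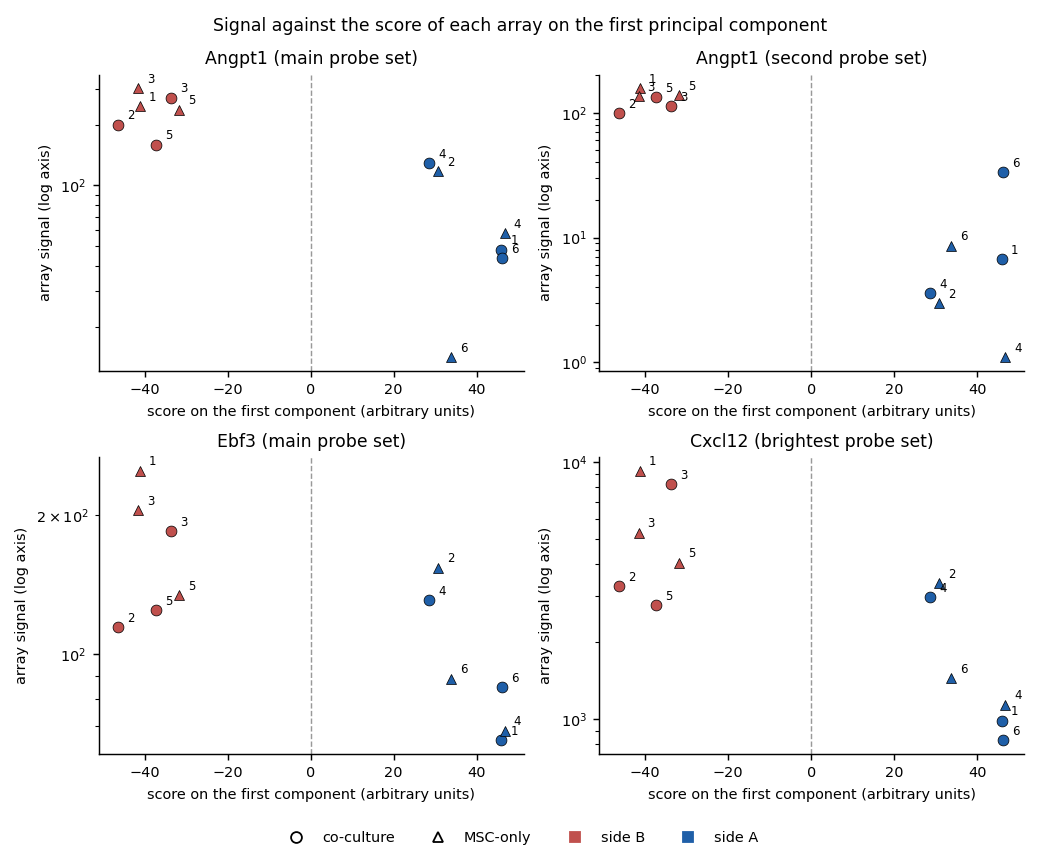
Array signal on a log axis (y) against the score of each array on the first principal component (x, arbitrary units) for both probe sets of Angpt1, the main probe set of Ebf3 and the brightest one of Cxcl12, with circles for co-cultures and triangles for MSC-only cultures, red for side B and blue for side A. Both Angpt1 panels show 2 clouds that do not overlap in height, while Ebf3 and Cxcl12 tend the same way with overlap between the sides.

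Vcam1 encodes the vascular cell adhesion molecule through which stromal cells hold blood stem cells and B-cell precursors by the integrin VLA-4. Signals of the main probe set (1448162_at) were 1389, 2007 and 2648 in co-cultures (lowest, median, highest) and 1156, 1663 and 3257 in MSC-only cultures. All 6 co-cultures lay within the range of the MSC-only cultures, whose top values came from cultures 3 and 4. The mean was 2012 ± 436 in co-cultures and 1929 ± 825 in MSC-only cultures (SD, n = 6 each), a difference of 0.13 (SE 0.25, 95% interval -0.41 to 0.68). Its other probe sets differed by 0.06 and -0.23. The subunits of VLA-4 were measured as well: Itga4 averaged 1711 ± 392 in co-cultures and 1639 ± 394 in MSC-only cultures (difference 0.06, with its other probe sets down to -0.37), and Itgb1 4528 ± 467 and 5173 ± 417 in the same order (SD, n = 6 each, difference -0.19, SE 0.10). Itgb7, the partner of the α4 subunit in gut-homing lymphocytes, was near the floor at 12.3 in co-cultures and 10.7 in MSC-only cultures.

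Il7 encodes interleukin-7, the stromal cytokine on which early B and T lymphocytes depend. In co-cultures the main probe set (1436861_at) had signals of 95.3, 156 and 269 (lowest, median, highest), and in MSC-only cultures 168, 208 and 292. Co-cultures 1, 2, 5 and 6 lay below every MSC-only culture, whereas co-cultures 3 and 4, at 243 and 269, lay inside their range. It averaged 172 ± 69.6 in co-cultures and 221 ± 54.9 in MSC-only cultures (SD, n = 6 each), a difference of -0.38 (SE 0.24, 95% interval -0.90 to 0.14, unadjusted p = 0.135 from limma). This was the most negative difference among the 10 main probe sets, and it did not pass the test. The second, dim probe set (1422080_at) differed by -0.22. Il7r, which encodes a chain of the IL-7 receptor, averaged 3869 ± 2097 in co-cultures and 2923 ± 1362 in MSC-only cultures (SD, n = 6 each), a difference of 0.26 with an SE of 0.43. Values of Il7r in single arrays ran from 1115 to 6023, both in co-cultures.

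Lepr encodes the leptin receptor, the marker by which marrow CAR cells are usually traced in mice. Its main probe set (1425875_a_at) was dim, with signals of 50, 71.2 and 109 in co-cultures (lowest, median, highest) and 41.4, 54.1 and 77.6 in MSC-only cultures. Co-cultures 2 and 6 lay above every MSC-only culture and the other 4 lay among them. The mean was 72.2 ± 22.4 in co-cultures and 57.5 ± 14.2 in MSC-only cultures (SD, n = 6 each), a difference of 0.25 (SE 0.18, 95% interval -0.14 to 0.63). The 3 dimmer probe sets of Lepr differed by -0.16, -0.24 and -0.01, so the direction was not shared between them. The transcript of leptin itself, Lep, was at 4.60 in co-cultures and 3.73 in MSC-only cultures.

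Foxc1, Ebf1 and Ebf3 encode the transcription factors of CAR cells, a forkhead protein and a pair of early B-cell factors. Early B-cell factors bind DNA as dimers at a palindrome of the letters CCC and GGG, and EBF1 is also the factor that specifies B lymphocytes. Their promoter sequences from RefSeq (mouse build GRCm38.p6, 250 bases that end just before the transcription start, read 5′ to 3′ on the strand of the gene) are shown because the signals of these 3 genes went together over the arrays, as given further down. Capitals mark a match to the early B-cell factor core CCCNNGGG, which reads the same on both strands.
Foxc1, chr13:31806396-31806645, plus strand: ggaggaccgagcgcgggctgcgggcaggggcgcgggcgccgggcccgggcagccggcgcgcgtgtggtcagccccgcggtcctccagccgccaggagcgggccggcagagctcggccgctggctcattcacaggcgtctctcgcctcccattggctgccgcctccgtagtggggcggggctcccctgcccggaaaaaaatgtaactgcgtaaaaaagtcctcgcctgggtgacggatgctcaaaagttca
Ebf1, chr11:44617850-44618099, plus strand, first of 2 listed starts: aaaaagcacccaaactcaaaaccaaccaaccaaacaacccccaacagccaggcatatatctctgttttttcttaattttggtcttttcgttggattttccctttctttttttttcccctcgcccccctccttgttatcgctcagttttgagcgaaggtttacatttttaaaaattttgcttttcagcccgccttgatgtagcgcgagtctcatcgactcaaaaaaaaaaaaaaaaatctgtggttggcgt
Ebf3, chr7:137314446-137314695, minus strand: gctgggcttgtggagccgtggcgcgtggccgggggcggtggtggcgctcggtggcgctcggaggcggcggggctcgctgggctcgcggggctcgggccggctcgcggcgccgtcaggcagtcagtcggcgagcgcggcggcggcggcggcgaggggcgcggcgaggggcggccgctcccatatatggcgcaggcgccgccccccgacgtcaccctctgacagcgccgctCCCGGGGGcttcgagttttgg
The core was found in the Ebf3 window, at bases -21 to -14 from the start, and not in those of Foxc1 and Ebf1. Of 32851 promoter windows of that length in the RefSeq table, 11.8% held it. RefSeq windows were matched for 7 of the 10 genes, not for Angpt1, Vcam1 and Il7, and among the matched genes Ptn and Dpp4 also held 1 copy each. A match is a description of letters and not of a bound site.

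Foxc1 signals (1419486_at) were 169, 224 and 373 in co-cultures (lowest, median, highest) and 191, 289 and 318 in MSC-only cultures. Co-cultures lay at both ends, with 2 above and 3 below every MSC-only culture. Foxc1 averaged 248 ± 85.0 in co-cultures and 264 ± 56.7 in MSC-only cultures (SD, n = 6 each), a difference of -0.12 (SE 0.21, 95% interval -0.58 to 0.34). The second probe set (1419485_at) differed by -0.07, with co-culture 3 far above the other co-cultures at 387.

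Ebf1 signals (1416301_a_at) were 69.9, 115 and 264 in co-cultures (lowest, median, highest) and 86.4, 153 and 213 in MSC-only cultures. Co-cultures 3 and 4 exceeded every MSC-only culture and co-culture 6 lay below all of them. Means were 147 ± 76.1 in co-cultures and 152 ± 45.4 in MSC-only cultures (SD, n = 6 each), a difference of -0.12 (SE 0.29, 95% interval -0.75 to 0.50). Of its 5 probe sets, 4 had a lower mean in co-cultures, and the differences ran from -0.21 to 0.38.

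Ebf3 signals (1452751_at) were 65.3, 120 and 184 in co-cultures (lowest, median, highest) and 68.4, 144 and 249 in MSC-only cultures. Co-culture 1 was lowest of the 12 arrays and MSC-only cultures 1 and 3 were highest. Ebf3 averaged 117 ± 41.1 in co-cultures and 150 ± 68.5 in MSC-only cultures (SD, n = 6 each), a difference of -0.26 (SE 0.29, 95% interval -0.89 to 0.37). All 3 of its probe sets had a lower mean in co-cultures, the dimmer ones by -0.54 and -0.52 (unadjusted p = 0.180 and 0.0705), short of the test.

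Ptn encodes pleiotrophin, a secreted heparin-binding growth factor of marrow stroma and endothelium that expands blood stem cells. In co-cultures the main probe set (1443173_at) had signals of 53.1, 94.7 and 136 (lowest, median, highest), and in MSC-only cultures 29.9, 79.7 and 147. Co-cultures 1, 2 and 3 were low and co-cultures 4, 5 and 6 high, all within the range of the MSC-only cultures. Ptn averaged 93.4 ± 40.4 in co-cultures and 82.2 ± 37.8 in MSC-only cultures (SD, n = 6 each), a difference of 0.16 (SE 0.30, 95% interval -0.49 to 0.82). The other 2 probe sets differed by -0.22 and -0.08. One of them (1448254_at) ran opposite to Angpt1 over the first component, with signals of 5.8 to 23.0 on side B and 31.2 to 70.3 on side A. The main probe set of Ptn overlapped between the sides, so its probe sets disagreed on this.

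None of the 5 measured binding partners of pleiotrophin passed the test at an adjusted p under 0.05. Ptprz1, the receptor phosphatase that pleiotrophin inhibits, averaged 55.8 in co-cultures and 68.0 in MSC-only cultures (difference -0.26, SE 0.15), and the proteoglycan gene Sdc3 1870 and 2198 in the same order (difference -0.22, SE 0.13). Each of these genes also had a probe set with a difference of 0.33. Alk, Sdc1 and Ncl, which encode further binding partners, had differences of 0.12, -0.13 and -0.05, and the probe sets of Sdc1 and Ncl lay on both sides of 0.

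Dpp4 encodes a surface peptidase (CD26) that cuts and inactivates CXCL12 and other niche cytokines and that marks adventitial fibroblasts. Its main probe set (1438279_at) was dim, with signals of 26.4, 38.8 and 98.6 in co-cultures (lowest, median, highest) and 8.3, 24.3 and 38.8 in MSC-only cultures. Co-cultures 1, 5 and 6 lay above every MSC-only culture, and the other 3 overlapped with them. The mean was 48.9 ± 26.8 in co-cultures and 24.9 ± 11 in MSC-only cultures (SD, n = 6 each), a difference of 0.63 (SE 0.25, 95% interval 0.08 to 1.18). Among the 32 probe sets this alone had an unadjusted p under 0.05 in limma's fit across all probe sets (0.0288), and it did not pass after adjustment. Without co-culture 5, co-culture 6, MSC-only culture 1 or MSC-only culture 4 the unadjusted p lay between 0.0541 and 0.0678. The other 3 probe sets of Dpp4, with signals near the floor, differed by 0.32, -0.09 and -0.39. Ada and Cav1, which encode proteins that bind DPP4, had differences of -0.01 and -0.03.

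**Figure D3:**
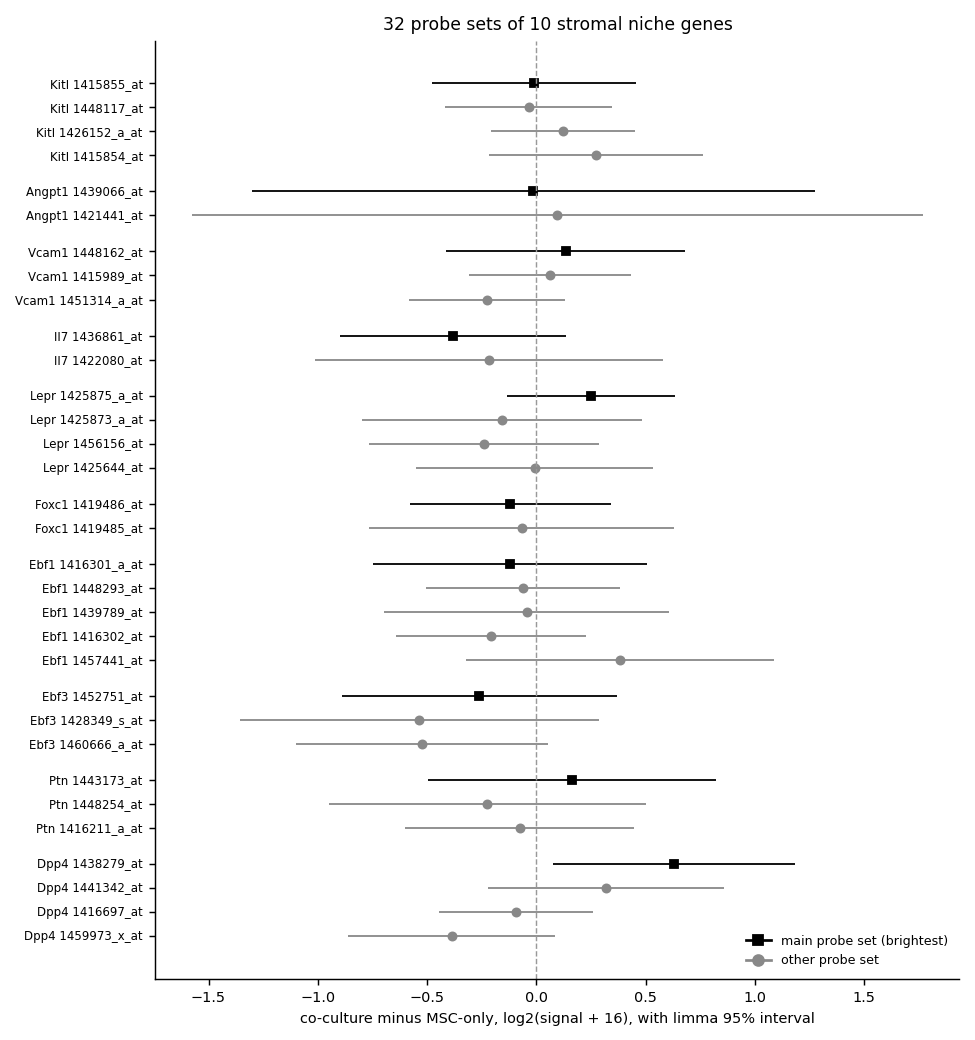
Difference of co-culture minus MSC-only on the log2(signal + 16) scale (x axis) for each of the 32 probe sets (rows), with limma's 95% interval as a bar, black squares for main probe sets and grey circles for the others. Of the 32 intervals, 31 include 0, and that of the main Dpp4 probe set runs from 0.08 to 1.18.

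Leaving out the arrays numbered 3 and 4 of both groups changed the picture for some members, although 0 of the 32 probe sets passed the adjusted threshold. Of the 32, 3 then had an unadjusted p under 0.05 as higher and 4 as lower, where 4.02% of all probe sets were under it as higher and 2.83% as lower. The 7 probe sets belonged to 5 genes, so they are not 7 separate observations.

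Vcam1 measured 1737 to 2648 in co-cultures 1, 2, 5 and 6 and 1156 to 1907 in MSC-only cultures 1, 2, 5 and 6, a difference of 0.60 (SE 0.19, unadjusted p = 0.0135 and adjusted p = 0.629 from limma). The 2 cultures with the highest Vcam1 signal among the MSC-only ones, 3 and 4, were left out here. In arrays 3 and 4 alone the difference was -0.81 (SE 0.27, adjusted p = 0.940 from limma), so the main Vcam1 probe set differed in opposite directions. Its other probe sets did not share this evenly, with 0.23 and -0.38 in the 8 arrays.

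Il7 measured 95.3 to 156 in co-cultures 1, 2, 5 and 6 and 169 to 292 in MSC-only cultures 1, 2, 5 and 6, without overlap. In these 8 arrays 4.39% of all probe sets did not overlap between the groups, and 2 of the 32 member probe sets did not (6.25%). The Il7 difference was -0.68 (SE 0.21, unadjusted p = 0.0117 and adjusted p = 0.619 from limma), against 0.22 in arrays 3 and 4 alone (SE 0.30).

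The other probe set without overlap was a dimmer one of Ebf1 (1416302_at), with 53.6 to 92.7 in co-cultures and 103 to 114 in MSC-only cultures of the 8 arrays (difference -0.52, SE 0.16, unadjusted p = 0.00971 and adjusted p = 0.598 from limma). The main Ebf1 probe set differed by -0.52 with a larger SE of 0.27, and by 0.68 in arrays 3 and 4 alone. Ebf3 had differences of -0.56 for the main probe set and of -0.91 and -0.88 for the dimmer ones in the 8 arrays (unadjusted p = 0.0948, 0.0202 and 0.0126), and its main probe set 0.33 in arrays 3 and 4 alone.

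For Foxc1 the 8 arrays gave -0.36 and arrays 3 and 4 alone 0.35. Dpp4 had differences of 0.86 in the 8 arrays (unadjusted p = 0.0315, adjusted p = 0.704 from limma) and 0.17 in arrays 3 and 4. Lepr stood at 0.36 and 0.02, Kitl at -0.15 and 0.28, Angpt1 at -0.22 and 0.41, and Ptn at 0.15 and 0.20, in the same order. In the 8 arrays Xist was high in the co-cultures only and the Y-linked signals of the co-cultures were 42.5% to 45.8% of those of the MSC-only cultures, so any difference there lies along that division too. The difference between both subsets of arrays was not tested.

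**Figure D4:**
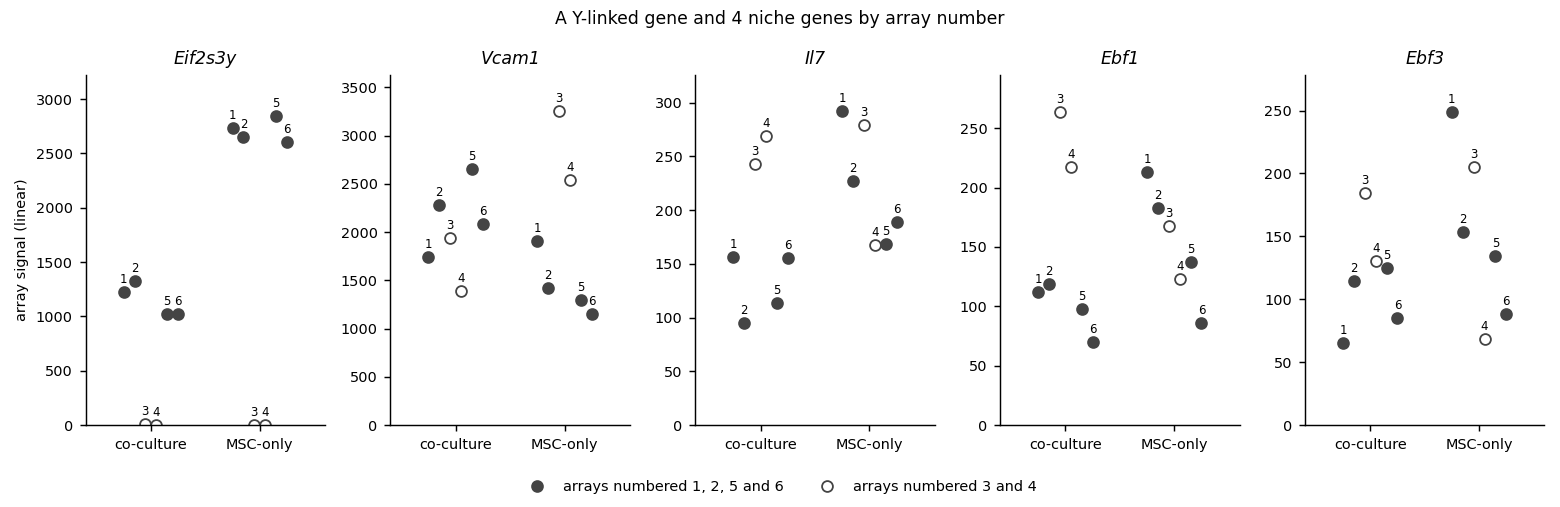
Linear array signal (y axis) of the Y-linked gene Eif2s3y and of the main probe sets of Vcam1, Il7, Ebf1 and Ebf3 in co-cultures (left) and MSC-only cultures (right), filled points for arrays numbered 1, 2, 5 and 6 and open points for arrays 3 and 4. Open points of Eif2s3y lie near 0 in both groups, and for Il7 the 4 filled co-culture points lie below all 4 filled MSC-only points while the open ones do not.

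Spread between cultures was wide for these genes. The SD within groups on the log2 scale was 0.54 for Ebf1, 0.55 for Ebf3, 0.47 for Vcam1, 0.44 for Il7, 0.40 for Kitl and 0.39 for Foxc1, where the median of the 10180 genes with a mean signal of at least 100 was 0.19. From 5.39% (Ebf3) to 12.7% (Foxc1) of those genes varied more. Genes of like signal were not compared separately. Ebf3, Ebf1, Angpt1 and Il7 had mean signals of 134, 149, 152 and 196 over the 12 arrays, not far above 100. Between the sides of the first component 3 of the 32 probe sets did not overlap, both of Angpt1 and 1 of Ptn, where 6.6% of all probe sets did not, so the count was close to that of the array as a whole. Foxc1 measured 169 to 373 on side B and 178 to 293 on side A, and Ebf3 115 to 249 on side B and 65.3 to 154 on side A, with overlap in each case.

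Some pairs of the genes went up and down together over the 12 arrays and others did not. Pearson's r of log2(signal + 16) was 0.81 between Ebf1 and Foxc1, 0.78 between Foxc1 and Ebf3 and 0.73 between Ebf1 and Ebf3. Within the 6 arrays of side B and the 6 of side A these were 0.77 and 0.87, 0.45 and 0.93, and 0.80 and 0.68. Angpt1 followed Ebf3 at 0.81 (0.71 within side B and 0.65 within side A). Il7 followed Ebf1 at 0.71 (0.83 and 0.84) and Kitl at 0.63 (0.75 and 0.72). Weaker over the 12 arrays were Kitl with Angpt1 (0.05), Ebf3 (0.16) and Foxc1 (0.18), and Il7 with Angpt1 (0.24). Each of these was higher within the sides, with 0.63 and 0.94 for Kitl and Angpt1. Many genes outside the list were nearer. Among 10179 other genes with a mean signal of at least 100, Foxc1 ranked 82 in likeness to Ebf1. Ebf3 ranked 252 in likeness to Angpt1, and Kitl 376 to Il7. Vcam1 followed none of Kitl, Il7, Foxc1 and Ebf1, with r between -0.19 and -0.03. The 12 arrays share their 2 groups, the sides and the mixture of cells in a culture, and these values are descriptions of them.

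Over 10179 other genes with a mean signal of at least 100, the 3 whose pattern was most like that of each gene were sought. Those of Ebf3 were Slc7a2 (r = 0.96), the chemokine gene Cxcl12 (r = 0.95) and Cdkn2b (r = 0.94), and for Cxcl12 the values within side B and side A were 0.90 and 0.92. Cxcl12, whose product gave CAR cells their name, measured 829, 2877 and 8196 in co-cultures (lowest, median, highest) and 1137, 3712 and 9227 in MSC-only cultures, a difference of -0.43 with an SE of 0.61, with another probe set at 0.26. Its high arrays were those of Ebf3, led by MSC-only culture 1 and co-culture 3. For Ebf1 the nearest were S100a16 (0.96), Gpm6b (0.95) and the basement membrane collagen gene Col4a1 (0.95), and for Foxc1 Adi1 (0.93), Fam13c (0.93) and Pcdh19 (0.91). Il7 lay nearest to Gli3 (0.91), Lgr4 (0.90) and the mesenchymal receptor gene Pdgfrb (0.90), and Kitl to Ltbp1 (0.93), Ttc3 (0.89) and Gdf3 (0.87). Angpt1 lay nearest to Mtor (0.95), Zfas1 (0.95) and Mccc1 (0.94). The values were 0.58, 0.83 and 0.58 within side B and 0.90, 0.85 and 0.89 within side A. Vcam1 lay nearest to Papola (0.92), Plac8 (0.91) and Gm19710 (0.90), none of which was nearest to another member.

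Pdgfrb, from the list of fibroblast and mesenchymal markers, ran with Il7 within both sides (0.96 and 0.89). It averaged 756 ± 362 in co-cultures and 995 ± 278 in MSC-only cultures (SD, n = 6 each), a difference of -0.47 (SE 0.28). Of 14 measured fibroblast and mesenchymal genes 3 were above and 11 below the MSC-only mean in co-cultures, with a median of -0.26 and 0 past the adjusted threshold. At an unadjusted p under 0.05 from limma 1 was higher and 1 lower, where 2.81% and 1.55% of all probe sets were. Postn, which encodes the matrix protein periostin, averaged 3571 in co-cultures and 5599 in MSC-only cultures (difference -0.62, SE 0.20). The proteoglycan gene Lum was dim, at 69.2 ± 56.4 and 24.8 ± 22.1 in the same order (SD, n = 6 each). It differed by 1.03 (SE 0.40), and its highest signal was 180, in co-culture 2. The part of the mesenchymal genes in the differences of Il7, Ebf1 and Ebf3 was not tested.

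Other genes of the niche were read in the same way. Of 15 measured receptors and binding partners 7 were higher and 8 lower (median -0.01, 0 called). Of 32 measured niche ligands besides the members, 9 were higher on average and 23 lower (median -0.11, 0 called, 1 higher at an unadjusted p under 0.05). Over all probe sets 2.81% were under that p as higher and 1.55% as lower, which holds beside each such count of a list. The cytokine gene Il11 was dim, at 38.6 in co-cultures and 18.7 in MSC-only cultures, and differed by 0.69 (SE 0.29). Wnt5a differed by -0.21 (SE 0.10), the adhesion gene Cdh2 by -0.29 (SE 0.15) and Csf1 by -0.21 (SE 0.12). Igf1 differed by 0.11 (SE 0.21) and Gas6 by -0.11 (SE 0.13). Of 21 measured stromal transcription factors 11 were higher and 10 lower (median 0.02, 0 called, 2 lower at an unadjusted p under 0.05). Ebf4, a relative of Ebf1 and Ebf3, measured 12.1 ± 7.5 in co-cultures and 36.2 ± 16.6 in MSC-only cultures (SD, n = 6 each), and differed by -0.86 (SE 0.24), which did not pass limma's test (adjusted p = 0.889). The mesenchymal regulator gene Twist1 differed by -0.53 (SE 0.21), and the adipocyte regulator gene Pparg by 0.37 (SE 0.18).

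Of the 20 markers of leptin receptor positive CAR stroma 6 were higher and 14 lower (median -0.08, 0 called, 1 higher at an unadjusted p under 0.05). Igfbp5 differed by 0.83 (SE 0.33) with a second probe set at -0.75, Lpl by 0.01 and Igfbp4 by -0.14 with another at 0.01. Ngfr was dim, at 30.2 in co-cultures and 14.5 in MSC-only cultures, with co-culture 2 at 74.4. It differed by 0.53 (SE 0.32), with another probe set at -0.11. Of 15 genes of Dpp4-positive adventitial fibroblasts 6 were higher and 9 lower (median -0.10, 0 called, 1 higher at an unadjusted p under 0.05). Among them Cd34 stood at 0.74 (SE 0.31), Pi16 at 0.25 (SE 0.11), Dact2 at -0.57 (SE 0.27) and Fn1 at -0.26 (SE 0.21). Dact2 was dim, at 9.57 in co-cultures and 25.3 in MSC-only cultures, and another of its probe sets had a difference of 0.48. Pi16 was near the floor, at mean signals of 9.48 in co-cultures and 5.38 in MSC-only cultures. Beside Dpp4, Cd34 is also a gene of blood progenitors, and its probe set measured 52.6 ± 18.2 in co-cultures and 28.1 ± 20.2 in MSC-only cultures (SD, n = 6 each).

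Marker lists of other cells were set beside the array as a whole. Median differences were -0.01 for 18 macrophage and pan-leukocyte genes, 0.17 for 13 endothelial genes, 0.15 for 11 B lymphoid genes, 0.02 for 11 HSC and progenitor genes, 0.20 for 8 erythroid genes and 0.04 for 7 mast cell and basophil genes, against 0.01 over all genes, and 0 genes of these lists passed the adjusted threshold. Genes higher and lower in co-cultures were 7 and 11 for macrophages and leukocytes, 9 and 4 for endothelium and 9 and 2 for B lymphoid cells. They were 7 and 4 for HSCs and progenitors, 8 and 0 for erythroid and 4 and 3 for mast cells and basophils. Most endothelial genes were dim, with 2 of 13 at a mean signal of at least 100 and a summed signal of 1122 to 1924 in co-cultures and 1140 to 1871 in MSC-only cultures. That signal was also reached by only 2 of 11 B lymphoid, 4 of 11 HSC and progenitor, 2 of 8 erythroid and 1 of 7 mast cell and basophil genes.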

How the data were processed

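The authors hybridized RNA of 12 cultures and read the arrays with the GeneChip Operating Software. The deposited signal per probe set is linear, and the arrays had been brought to about the same mean (2% trimmed mean 496.6 to 497.3), with a target and a summary method that no source used here states. Detection calls were not used. Of 45037 probe sets 34945 had 1 gene symbol, 932 several and 9160 none, and 34741 were matched to RefSeq by gene ID, with 0 symbols changed. Signals entered the analysis as log2(signal + 16). Co-cultures and MSC-only cultures, as the sample labels give them, were compared by limma's lmFit and eBayes (limma 3.58.1, R 4.3.3) without a block or a filter, p-values were adjusted by Benjamini and Hochberg's method across the whole array, and 0.05 was the threshold. This fit was first tested on simulated data with known changes.

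Members and gene lists were chosen with earlier results of these data known, as was leaving out the arrays numbered 3 and 4. Named were every probe set of the 10 genes, genes with the smallest p or the highest signal in the other niche lists, up to 3 of each, and the 3 genes most like each member that had a mean signal of at least 100. Xist, Eif2s3y, the values of Il7r, Lum and Ngfr in single arrays and the range of Cxcl12 were chosen after their values were seen. Alternatives covered scaling, the constant added, a minimum mean signal, the replicate number as fixed or random block, limma's trend and robust options, the methods' t-test, the mean over probe sets of a gene and leaving out arrays. Those by side of the first component and for arrays 3 and 4 alone were chosen after seeing the data.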

Additional observations from a re-analysis of the deposited data

Results flagged for a closer look

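Of 64 sets of 6 arrays, 1 for each of the 32 probe sets in each group, 7 held an array whose distance from the nearest of the others, over the whole range, passed Dixon's critical value for 6 samples. Chance gives about 1 in 20 such sets. Of the 7, 6 were secondary probe sets with mean signals under 100.

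In co-cultures, array 3 was far above the others for the second Foxc1 probe set (1419485_at) at a signal of 386.6, and array 4 was highest for a Dpp4 probe set (1459973_x_at) at 2.2. In MSC-only cultures, array 6 was lowest for a Kitl probe set (1415854_at) at 11.5, and array 2 was lowest for a Lepr probe set (1456156_at) at 1.2. Array 5 of the MSC-only cultures was highest for another Lepr probe set (1425644_at) at 29.3, array 1 for a Ptn probe set (1416211_a_at) at 38.4 and array 4 for a Dpp4 probe set (1441342_at) at 23. No main probe set was among the 7.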

How the results depend on the processing

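Under all alternatives run, 0 of the member probe sets passed the adjusted threshold, as with all arrays. Over all probe sets 2 were called, and 1 under quantile normalization, median centring, 75th percentile centring, log2(signal + 1), the methods' t-test or the first component side as a term. The count was 0 with log2(signal + 64), with a mean signal of at least 100 or with limma's trend and robust options, 8 without the arrays numbered 3 and 4, and 0 to 4 as single arrays were left out (0 without co-culture 3 or MSC-only culture 1, 4 without MSC-only culture 6). Before adjustment the fit gave 1264 probe sets as higher and 700 as lower at p under 0.05, against 919 and 1010 under quantile normalization, 893 and 1065 under median centring and 1382 and 622 under 75th percentile centring.

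What same-numbered arrays share is not given in the sources used here, although the sample titles give both the same MSC number. The numbers were not taken as pairs. The correlation of their deviations ran from -0.16 to 0.15, with 4 of 6 above 0.1, and 1 of 6 co-cultures was nearest to its own number. Numbers 1 and 2, with the negative values, had their arrays on opposite sides of the first component, and the other numbers on the same side. The correlations thus follow the sides and cannot decide whether same-numbered cultures share a preparation. Arrays 3 and 4 shared their sex-linked signals in both groups. With the replicate number as a fixed block 0 probe sets were called, and 2 as a random block.

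Differences that changed sign all stayed short of the adjusted threshold, and the cause was not tested. In arrays 3 and 4 alone Kitl was at 0.28, Angpt1 at 0.41, Vcam1 at -0.81, Il7 at 0.22, Foxc1 at 0.35, Ebf1 at 0.68 and Ebf3 at 0.33. With the mean over the probe sets of a gene Kitl was at 0.0867, Angpt1 at 0.0411, Vcam1 at -0.0114, Lepr at -0.0397 and Ptn at -0.0456. Within side B Kitl was at 0.0023 and Ptn at -0.0115, within side A Angpt1 was at 0.29, and with log2(signal + 1) Angpt1 was at 0.0634. As single arrays were left out Kitl ran from -0.14 to 0.0933, Angpt1 from -0.45 to 0.23, Ebf1 from -0.30 to 0.0360 (positive without co-culture 6) and Ptn from -0.0365 to 0.33 (negative without MSC-only culture 6), and the other 6 genes kept their sign. The Dpp4 difference ran from 0.12 to 0.94 over all settings.

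The main probe sets of Lepr, Ptn and Dpp4 drop out with a minimum mean signal of 100, which leaves 15 member probe sets, and dim signals set the limit for these genes.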
